A study of Arabidopsis thaliana with 16 samples.

Results

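Extensins are structural glycoproteins of the plant cell wall. Their chains repeat runs of proline between tyrosine-bearing stretches, the prolines are hydroxylated and carry short arabinose chains, and peroxidases link the tyrosines of neighbouring chains into a network. Root hairs, the tubular outgrowths of epidermal cells that take up phosphate (Pi), use many extensins in their walls, and Arabidopsis seedlings short of Pi grow more and longer root hairs. Described here are 10 extensin or extensin-like loci of Arabidopsis among the 27206 protein-coding genes with values, and the 3 antisense long non-coding RNA (lncRNA) loci on the opposite strand of 3 of them. The genes were taken by name, with each gene's level as the sum of FPKM (fragments scaled by transcript length and library size) over its transcripts. The antisense loci came from the study's list of coding genes paired with antisense lncRNAs by shared response to Pi supply. The set was thus selected on the poly(A)+ difference between media, which is given below as a description with no test.

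The seedlings were wild-type Col-0, 10 days old, on agar of half-strength MS salts. P– seedlings had 0.65 mM K2SO4 in place of KH2PO4, and P+ seedlings had 1.25 mM KH2PO4. Whole roots and whole shoots were collected, and oligo(dT) beads split the RNA by poly(A) tail into poly(A)+ and poly(A)– RNA. The labels place the removal of ribosomal RNA before this split, while the study's methods describe it for the poly(A)– RNA after it. This gave 16 libraries in 8 groups, each with 2 biological replicates. By the labels, reads were mapped as unstranded in root replicate 1 and shoot replicate 2, and as first-strand in the rest. The tissue labels held against marker genes: 9 photosynthetic genes summed to 244 to 736 FPKM in root and 18439 to 25261 FPKM in shoot poly(A)+ libraries. The tables hold no read counts per gene, so the number of reads behind each value is unknown. The study lists total and mapped reads for each library. In all shoot poly(A)– libraries most reads mapped to the chloroplast and mitochondrial genomes, and such reads were dropped.

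All 10 coding sequences are tandem repeats. At a spacing of 75 bases (150 for AT4G08410 and AT5G06630, 78 for AT4G13390) 68.6 to 87.1% of the bases of a coding sequence were the same, lowest in AT4G13390 and highest in AT2G24980. Cytosine made up 39.2 to 41.6% of the coding strand and guanine 6.14 to 9.42%. Shown next are 150 in-frame coding bases, 5′ to 3′ on the gene's own strand (RefSeq, TAIR10.1), from 5 of the genes, to let the repeats be compared. Capitals mark the gene's most frequent in-frame unit of 15 bases.
AT1G23720: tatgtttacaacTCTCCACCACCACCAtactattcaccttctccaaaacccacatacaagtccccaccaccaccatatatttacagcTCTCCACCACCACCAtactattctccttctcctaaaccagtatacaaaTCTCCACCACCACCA
AT2G24980: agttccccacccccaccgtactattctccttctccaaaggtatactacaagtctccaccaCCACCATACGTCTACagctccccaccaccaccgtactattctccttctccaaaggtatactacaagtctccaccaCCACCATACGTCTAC
AT3G54580: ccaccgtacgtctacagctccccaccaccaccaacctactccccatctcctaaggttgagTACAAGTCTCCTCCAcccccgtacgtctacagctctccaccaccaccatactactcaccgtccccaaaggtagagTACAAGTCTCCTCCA
AT3G54590: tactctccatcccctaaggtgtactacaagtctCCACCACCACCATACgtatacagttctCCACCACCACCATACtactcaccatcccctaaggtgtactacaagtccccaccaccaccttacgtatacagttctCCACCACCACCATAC
AT4G13390: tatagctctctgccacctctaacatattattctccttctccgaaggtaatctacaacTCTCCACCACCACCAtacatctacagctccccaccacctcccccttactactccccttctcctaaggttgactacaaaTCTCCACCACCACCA
These stretches lie at chr1:8389210-8389359 (+), chr2:10622990-10623139 (+), chr3:20203117-20203266 (-), chr3:20207468-20207617 (+) and chr4:7784243-7784392 (+). The unit shown occurred 24 times in frame in AT1G23720, 12 times in AT2G24980, 14 times in AT3G54580, 17 times in AT3G54590 and 9 times in AT4G13390. Windows of 50 bases recurred within the same transcript least often in AT4G13390 (0%) and most often in AT2G24980 (37.7%).

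The repeats bear on how well reads can be assigned. AT4G08400 and AT4G08410, 13444 bases apart on chromosome 4, share 1 unbroken run of 735 bases. Of the 100-base windows of their transcripts, 43.5 and 28.6% were found in another of the 10 genes, against at most 0.138% for each of the other 8. Their separate levels are therefore uncertain, and their sum is given beside them. The next longest shared runs were 101 bases, between AT2G24980 (EXT6) and AT5G06630, and 83 bases, between AT3G54580 and AT3G54590 (HRGP1). AT3G54580 and AT3G54590 are neighbours 2208 bases apart that point away from each other, and AT5G06630 and AT5G06640 (EXT10) are neighbours 1742 bases apart on the same strand.

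The antisense lncRNA XLOC_016379 lay opposite AT3G54580 (chr3:20200573-20203919, minus strand). Its 3 assembled transcripts, of 2 exons each, lay wholly inside the gene and covered 61.7, 64.3 and 80.8% of its coding sequence. XLOC_020833 (chr4:5323571-5325400, plus strand) and XLOC_020835 (chr4:5338721-5341214, plus strand) had 1 transcript of 1 exon each, and covered 100% of the coding sequences of AT4G08400 and AT4G08410. No other assembled lncRNA of the study overlapped one of the 10 genes on the opposite strand. The antisense RNAs are thus complements of the extensin repeats over most of their length.

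**Figure D1:**
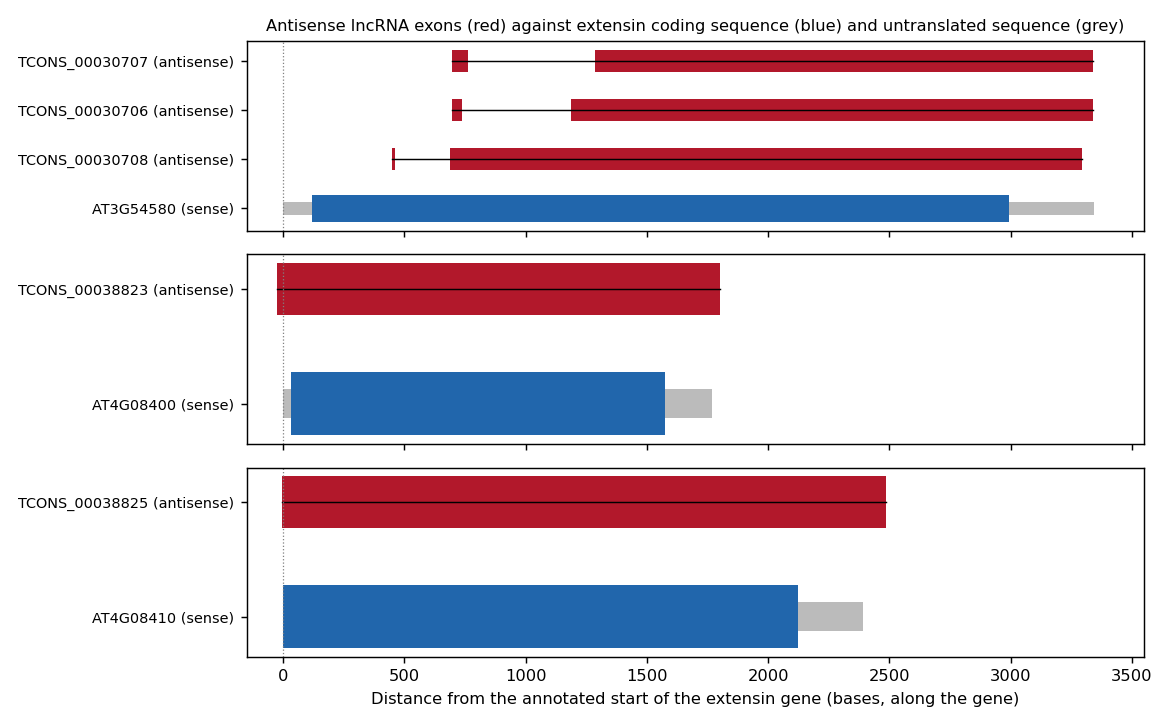
Exons of the antisense lncRNA transcripts (red) above the extensin on the opposite strand, with its coding sequence in blue and untranslated sequence in grey, against the distance in bases from the annotated start of each gene. The antisense exons cover 61.7 to 80.8% of the coding sequence of AT3G54580 and 100% of that of AT4G08400 and AT4G08410.

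The introns of XLOC_016379 followed the repeat. They measured 525 bases in TCONS_00030707, 450 bases in TCONS_00030706 and 225 bases in TCONS_00030708, which are 7, 6 and 3 whole periods of 75 bases with a remainder of 0. The introns of TCONS_00030707 and TCONS_00030708 began with GT and ended with AG, and that of TCONS_00030706 began with AT and ended with AC. In TCONS_00030708 the junction could be moved over 32 bases without changing the spliced sequence, in TCONS_00030706 over 11 bases, and in TCONS_00030707 over 3 bases. Of the 918 introns of the other lncRNAs assembled by the study, 9 (0.98%) had 10 or more such bases, with a median of 2. The 3 periods of the TCONS_00030708 intron and the period that follows it are shown on the plus strand, the strand of the lncRNA, with capitals at the bases that differ from the first period.
Intron period 1: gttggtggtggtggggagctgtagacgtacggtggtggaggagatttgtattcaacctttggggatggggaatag
Intron period 2: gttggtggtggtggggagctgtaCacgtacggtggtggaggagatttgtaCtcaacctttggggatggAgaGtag
Intron period 3: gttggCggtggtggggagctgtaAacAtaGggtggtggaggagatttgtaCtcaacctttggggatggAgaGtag
Following period: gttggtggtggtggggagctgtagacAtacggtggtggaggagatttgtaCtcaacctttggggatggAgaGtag
They run from chr3:20203232-20203306 to chr3:20203457-20203531, and differ from the first at 4, 7 and 4 bases. Whether this intron is a splice or a gap between alike repeats was not tested. TCONS_00030708 was the most abundant transcript of the locus in every root library, with 316.9 and 375.6 FPKM in P– roots and 147.1 and 100.2 FPKM in P+ roots (poly(A)+).

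The first question was where the 10 genes were transcribed. In poly(A)+ RNA all 10 were higher in roots than in shoots on both media. On P– medium they summed to 1911 and 1187 FPKM in roots, against 50.8 and 114 FPKM in shoots. On P+ medium they summed to 1388 and 802 FPKM in roots, against 0.943 and 0.745 FPKM in shoots. In P+ shoots AT2G24980, AT4G08400 and AT4G13390 (EXT12) were listed at 0 in both libraries, and none of the other 7 reached 1 FPKM. In whole organs, fewer cells of a type and less RNA per cell cannot be told apart.

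AT3G28550 had the highest mean in roots in poly(A)+ RNA (in poly(A)– RNA of P– roots it was the third). It had 432 and 309 FPKM in P– roots, against 11.7 and 28.9 FPKM in P– shoots. In P+ roots it had 526 and 231 FPKM, against 0.254 and 0.164 FPKM in P+ shoots. The libraries of the organs did not overlap on either medium. The root to shoot difference on the log2(FPKM + 1) scale was 4.23 ± 0.49 (SE) under P– (limma, adjusted p = 0.000316) and 8.18 ± 0.49 under P+ (adjusted p = 1.07e-05).

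AT1G23720 had 111 and 125 FPKM in P– roots, against 8.42 and 14.9 FPKM in P– shoots, a difference of 3.28 ± 0.30 (SE, adjusted p = 0.000105). In P+ roots it had 219 and 244 FPKM, against 0.337 and 0.143 FPKM in P+ shoots. This difference, 7.55 ± 0.30 (adjusted p = 2.92e-06), was the next largest after that of AT3G28550. Of the 10 genes it had the highest shoot level relative to its root level under P–, at 9.88%.

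Across the 10 genes the median difference between roots and shoots was 4.24 (range 2.85 to 4.73) under P– and 5.17 (3.53 to 8.18) under P+. With P+ shoot levels below 1 FPKM, the sizes under P+ depend on the value added before the logarithm. Their order was that of the P+ root means. Over all 20951 features fitted the median was 0.32 and 0.36. All 10 genes passed an adjusted p of 0.05 on each medium, where 25.9% of features were called higher in roots under P– and 28.8% under P+. The same libraries hold the contrast between media that was in view when the genes and antisense loci were chosen. All 10 also had libraries that did not overlap between the organs, as did 48.2 and 46.6% of features. The least certain were AT4G08410, at 2.85 ± 0.61 under P– (adjusted p = 0.00646), and AT4G08400, at 3.78 ± 0.84 (adjusted p = 0.00806). Without 1 library, AT4G08400 missed the threshold under P– (adjusted p = 0.063, without 1 P– root library), and so did AT4G08410 (adjusted p = 0.0549, without 1 P– shoot library).

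The antisense loci had the same organ pattern as the genes. XLOC_016379 had 357 and 394 FPKM in P– roots, against 25.1 and 28.7 FPKM in P– shoots, a difference of 3.76 ± 0.36 (SE, adjusted p = 0.000129). In P+ roots it had 221 and 102 FPKM, against 0.251 and 0.00377 FPKM in P+ shoots, a difference of 7.08 ± 0.36 (adjusted p = 6.07e-06). XLOC_020833 and XLOC_020835 were higher in roots by 5.27 ± 0.52 and 3.29 ± 0.54 under P–, and by 4.31 ± 0.52 and 3.40 ± 0.54 under P+. All 3 loci passed the test on both media.

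**Figure D2:**
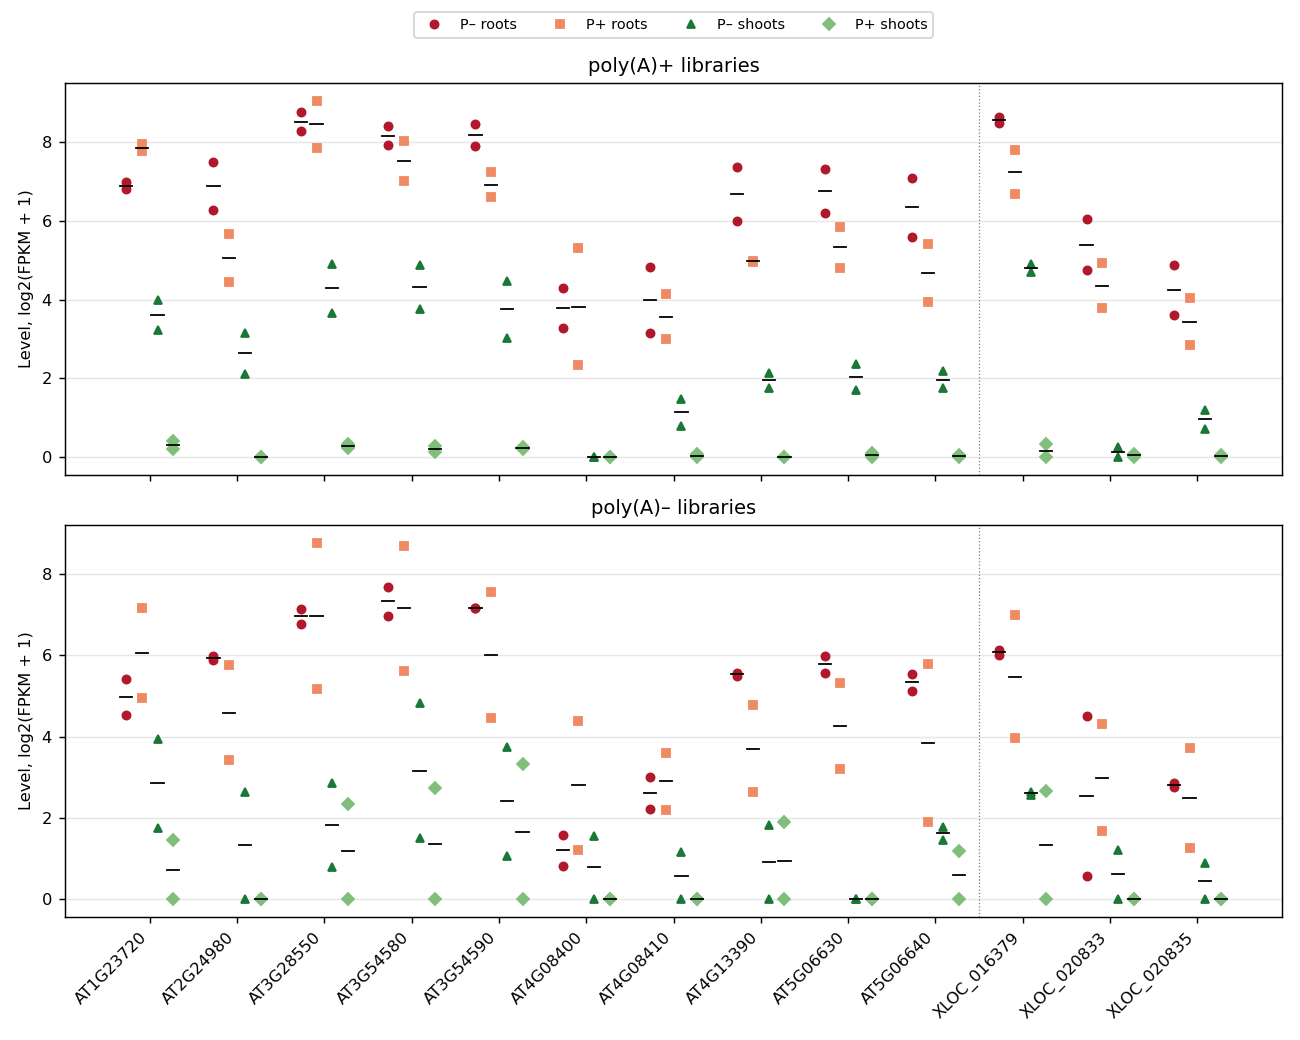
Level of each extensin and antisense locus in every library as log2(FPKM + 1), poly(A)+ above and poly(A)– below, with 2 libraries per group as points and the group mean as a bar. In the poly(A)+ panel every root library lies above every shoot library on the same medium, while the 2 P+ root libraries of the poly(A)– panel lie far apart.

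The order of the genes in P– roots (poly(A)+) began with AT3G28550 (mean 370 FPKM), AT3G54590 (293) and AT3G54580 (290), whose libraries overlapped. These were apart from AT2G24980 (127), AT1G23720 (118), AT5G06630 (115), AT4G13390 (113) and AT5G06640 (90.9), which overlapped among themselves. AT4G08410 (17.6) and AT4G08400 (13.6) came last and apart from the others. In P+ roots AT3G28550 (378), AT1G23720 (231), AT3G54580 (195) and AT3G54590 (122) led, and the next gene, AT5G06630 (41.7), stood apart from them. FPKM is scaled by transcript length, which allows levels of different genes to be set side by side, but the separate levels of AT4G08410 and AT4G08400 are uncertain. How the repeats within a gene affect its level was not tested.

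In roots, the 10 genes did not all follow the Pi supply in the same direction. AT2G24980 had 178 and 76.9 FPKM in P– roots, against 49.9 and 20.9 FPKM in P+ roots, and the libraries did not overlap. Its log2 difference was 1.82 ± 0.56 (SE), the largest of the 10. Each SE in poly(A)+ RNA comes from a spread shared by the root and shoot groups. Replicates of the 10 genes differed by a median of 1.08 log2 in P– roots and 1.09 log2 in P+ roots. In P– and P+ shoots this median was 0.72 and 0.06 log2. The low spread of P+ shoots thus enters the SE of differences between P– and P+ roots. These SE values can therefore be too narrow. AT4G13390 had 164 and 62.4 FPKM in P– roots, against 30.4 and 30.1 FPKM in P+ roots, a difference of 1.71 ± 0.44.

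The neighbours AT5G06640 and AT5G06630 were alike. AT5G06640 had 135 and 47.1 FPKM in P– roots, against 41.7 and 14.2 FPKM in P+ roots (1.66 ± 0.60, SE). AT5G06630 had 158 and 72 FPKM in P– roots, against 56.4 and 27 FPKM in P+ roots (1.43 ± 0.49). For both genes every P– library was above every P+ library.

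The divergent neighbours on chromosome 3 differed in this. AT3G54590 had 348 and 238 FPKM in P– roots, against 149 and 95.9 FPKM in P+ roots, with no overlap (1.26 ± 0.47, SE). AT3G54580, the gene with the antisense lncRNA, had 340 and 240 FPKM in P– roots, against 261 and 128 FPKM in P+ roots, and its libraries overlapped (0.64 ± 0.45), though it was higher under P– in each replicate number. Opposite to it, XLOC_016379 had a difference of 1.31 ± 0.36, with both P– libraries above both P+ libraries.

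AT1G23720 ran the other way. Its 111 and 125 FPKM in P– roots lay below the 219 and 244 FPKM in P+ roots, a difference of -0.97 ± 0.30 (SE). AT3G28550 was at 0.07 ± 0.49, and its P+ libraries lay on either side of the P– libraries. AT4G08400 had 18.7 and 8.62 FPKM in P– roots, against 38.8 and 4.03 FPKM in P+ roots (-0.04 ± 0.84). AT4G08410 had 27.3 and 7.89 FPKM in P– roots, against 16.6 and 6.97 FPKM in P+ roots (0.42 ± 0.61). Summed, these like genes had 46 and 16.5 FPKM in P– roots, against 55.4 and 11 FPKM in P+ roots, so the sum overlapped too.

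Of the 10 genes, 5 had P– root libraries above the P+ root libraries and 1 below, where 25.7 and 19.3% of all features did so. Set side by side by replicate number, 7 genes were higher under P– in both replicates, AT3G28550 and AT4G08400 in 1, and AT1G23720 in neither. Replicate 1 had the higher level of 9 of the 10 genes on either medium, and the replicates also differ in strand setting. The median difference was 0.95, against 0.06 over all features, of which 2.12% were called higher and 1.73% lower. Nothing is read from these counts, and no calls are counted for the 10 genes, because their choice had this contrast in view.

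In shoots, 9 of the 10 genes had a mean above 1 FPKM under P– and none did under P+. AT3G54580 had 12.5 and 28.4 FPKM in P– shoots, against 0.0893 and 0.209 FPKM in P+ shoots, a difference of 4.12 ± 0.45 (SE). AT3G28550 had a difference of 4.01 ± 0.49, AT3G54590 of 3.53 ± 0.47 and AT1G23720 of 3.31 ± 0.30. AT4G08400 was the exception, with 1.11e-06 and 0.000364 FPKM in P– shoots and 0 in both P+ libraries.

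XLOC_016379 was at 25.1 and 28.7 FPKM in P– shoots, against 0.251 and 0.00377 FPKM in P+ shoots, a difference of 4.64 ± 0.36 (SE). XLOC_020835 had 0.643 and 1.3 FPKM in P– shoots, against 0 and 0.0396 FPKM in P+ shoots. XLOC_020833 stayed at or below 0.194 FPKM in all 4 libraries. Thus of the antisense loci XLOC_016379 alone passed 2 FPKM in a shoot poly(A)+ library.

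The P– libraries lay above the P+ libraries for all 10 genes, as for 39.6% of features, although for AT4G08400 this rests on values next to 0. Of all features 4.05% were called higher and 2.55% lower. The median difference was 2.30, against 0.14 over all features. This contrast too was in view when the genes were chosen, and no calls are counted for them. The size depends on the value added before the logarithm: with 0.1 FPKM in place of 1 the median was 5.0, and with 5 FPKM it was 0.87.

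Genes of root cell types also differed between the shoot groups. A set of 12 root hair markers summed to 64 to 78.3 FPKM in P– shoots, against 12.5 in both P+ shoot libraries, where 4 of the 12 were at 0 in both. All 12 had positive differences and 5 were called. Of the 20951 features fitted, 12264 had positive differences and 4.05% were called higher. RHS13, a root hair gene, had 32.7 and 21.6 FPKM in P– shoots, against 0 and 0.252 FPKM in P+ shoots.

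Markers outside the hairs moved as well. A set of 13, with genes of the endodermis, stele and root tip, summed to 73.5 to 90.3 FPKM in P– shoots, against 26.3 to 30.2 FPKM in P+ shoots, with 2 at 0 in both P+ libraries and 4 called. CASP1, which builds the Casparian strip of the endodermis, had 18.8 and 10.5 FPKM in P– shoots, against 0.652 and 2.26 FPKM in P+ shoots. The 9 photosynthetic genes summed to 18439 to 23842 FPKM in P– shoots, against 20116 to 25261 FPKM in P+ shoots.

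Shoot levels were also set against root levels. Under P– the extensins' shoot mean was a median of 4.62% of their root mean (0.00134 to 9.88%), against 4.24% for the root hair markers (2.3 to 32.6%) and 10.5% for the root markers outside hairs (2.09 to 94.1%). Under P+ the medians were 0.0675% for the extensins, 0.081% for the root hair markers and 0.584% for the other root markers. So in P– shoots the 10 genes and the root hair markers stood at a like share of their root levels. The part of root tissue in the shoot samples was not tested.

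**Figure D3:**
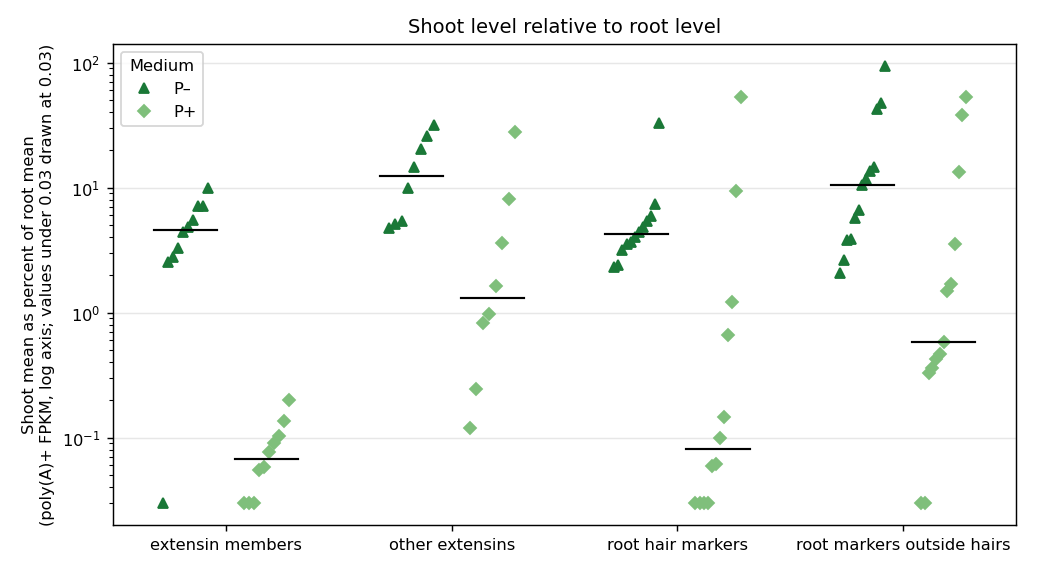
Shoot mean as percent of the root mean on the same medium (poly(A)+ FPKM, log axis) for the 10 extensins, other extensins, root hair markers and root markers outside hairs, with 1 point per gene and bars at the median. The extensins sit at a median of 4.62% under P– and 0.0675% under P+, beside 4.24 and 0.081% for the root hair markers.

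The poly(A)– libraries came from the same seedlings. The calls behind the antisense pairs used poly(A)+ values for these transcripts. The genes were chosen with earlier results of these data known, so this fraction is not an independent check. In roots, none of the 10 was called between P– and P+ in limma, where 0.0974% of features were called higher and 0.0146% lower. At an unadjusted p below 0.05 were 0 of the 10 genes and 1752 of 20526 features. The next values are those of the 10 genes. Adjusted p-values ran from 0.673 to 1. The median difference was 0.67, against -0.03 over all features.

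Even so, AT4G13390 and AT5G06630 had P– root libraries above the P+ ones. AT4G13390 had 46 and 44.1 FPKM in P– roots, against 26.3 and 5.16 FPKM in P+ roots, a difference of 1.83 ± 1.00 (SE, adjusted p = 0.755). AT5G06630 had 46.2 and 62.4 FPKM in P– roots, against 39.1 and 8.22 FPKM in P+ roots, a difference of 1.51 ± 0.73 (adjusted p = 0.673). AT2G24980 was the other gene without overlap (1.35 ± 1.02), and 18.1% of features were separated in this way.

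AT1G23720 had 22 and 41.7 FPKM in P– roots, against 141 and 29.9 FPKM in P+ roots, and the libraries overlapped (-1.08 ± 1.00, SE, adjusted p = 0.958). The P+ root libraries of this fraction lay far apart, with sums over the 10 genes of 1377 FPKM in replicate 1 and 164 FPKM in replicate 2. Without 1 of these libraries the median difference between P– and P+ roots was -0.73 or 2.52. All 10 were higher in replicate 1, which has the unstranded setting in roots, by 3.09 to 20 times. The next counts are of genes at 1 FPKM or more in both libraries. In P– roots of this fraction, 5 of 9 were higher in replicate 1. In P– shoots, where replicate 2 has the unstranded setting, 0 of 8 were in poly(A)+ RNA and 0 of 4 in poly(A)– RNA. An effect of the setting was not tested. The root hair markers summed to 503 to 550 FPKM in these libraries, and 11 other extensins summed to 1384 to 3760 FPKM.

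In poly(A)– shoots, no extensin was called either (limma, adjusted p from 0.379 to 1, 0 at an unadjusted p below 0.05), with 0.624% of features called higher and 0.273% lower. An unadjusted p below 0.05 was reached by 3128 of 20526 features. AT1G23720 came nearest, with 2.39 and 14.3 FPKM in P– shoots, against 0 and 1.73 FPKM in P+ shoots (2.12 ± 1.00, SE, adjusted p = 0.379). The difference between the root and the shoot response was not called for any of the 10 genes (adjusted p from 0.469 to 0.997), and 2 of 20526 features passed that test. For AT1G23720, whose root and shoot values had opposite signs, it was -3.20 ± 1.42 (adjusted p = 0.469).

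The fractions were compared in roots, as the shoot levels are low. Both were split from the same RNA, but the fit took their libraries as independent, with 1 spread over all 8 groups. That spread includes the P+ root poly(A)– libraries, which differed by a median of 2.71 log2 over the 10 genes. In P– roots all 10 genes were higher in both poly(A)+ libraries than in both poly(A)– libraries, as were 38.2% of features. The median difference was 1.08 (0.84 to 2.58 over the genes, and 0.56 to 1.78 for the median without single libraries), against 0.30 over all features. None was called in limma, with 2 at an unadjusted p below 0.05 and adjusted p-values from 0.221 to 0.748. Of the 20939 features fitted, 3829 had an unadjusted p below 0.05, and 0.979% were called higher in poly(A)+ RNA.

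AT4G08400 had the largest value, with 18.7 and 8.62 FPKM in poly(A)+ RNA, against 1.99 and 0.764 FPKM in poly(A)– RNA of P– roots (2.58 ± 1.05, SE, adjusted p = 0.221). XLOC_016379 had 357 and 394 FPKM in poly(A)+ RNA, against 69.3 and 63.1 FPKM in poly(A)– RNA (2.49 ± 0.90, adjusted p = 0.174). Its partner AT3G54580 had the smallest value of the 10 genes (0.84 ± 1.17, adjusted p = 0.748). In P+ roots the median was 0.97 (-0.44 to 2.40 without single libraries), and 2 of the 10 genes were without overlap, as were 31.1% of features. None of the 10 was called in limma there, with 1 at an unadjusted p below 0.05, as were 4594 of 20939 features.

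The antisense to sense ratio put the lncRNAs at the level of the extensins. XLOC_016379 over AT3G54580 was 1.05 and 1.64 in P– roots and 0.847 and 0.798 in P+ roots (poly(A)+). In poly(A)– RNA it was 0.558 and 0.309 in P– roots and 0.302 and 0.308 in P+ roots. In P– shoots it was 2.01 and 1.01 in poly(A)+ RNA, and 2.67 and 0.192 in poly(A)– RNA. For this pair every root poly(A)+ ratio was above every root poly(A)– ratio.

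XLOC_020835 over AT4G08410 was 1.04 and 1.42 in P– roots and 0.92 and 0.88 in P+ roots. XLOC_020833 over AT4G08400 was 3.5 and 2.98 in P– roots and 0.753 and 3.16 in P+ roots. For this pair the antisense value was the higher in 3 of 4 libraries, of which replicate 1 of P– roots (3.5) has the unstranded setting. Both antisense loci lie opposite the run of 735 bases that AT4G08400 and AT4G08410 share. The separate antisense levels are therefore uncertain too, and so are the ratios of these pairs. In poly(A)– RNA of roots the ratios of these pairs did not separate from the poly(A)+ ones: XLOC_020835 had 1.6 and 0.881 under P– and 1.08 and 0.392 under P+, and XLOC_020833 reached 10.9 in replicate 1 under P–. The poly(A)+ exception, at 0.753, was replicate 1 of P+ roots, where AT4G08400 was at 38.8 FPKM, against 4.03 FPKM in replicate 2.

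Beside these stood the 116 other pairs of the study's list in which both strands had transcripts that the study called as responding to Pi. Only called transcripts were summed for these pairs, and ratios were taken where the sense level reached 1 FPKM. Their medians were 0.371 and 0.5 in P– roots and 0.555 and 0.36 in P+ roots (poly(A)+). The 90th percentile was 1.12 to 1.88 in those libraries. Replicate 1 of the roots, the first value of each pair above, has the unstranded setting in its label, although the study describes all libraries as strand-specific. If reads were counted without strand there, sense and antisense cannot be told apart in those values. The strand option used for the FPKM is not given in the sources used here. In the first-strand libraries alone the medians over P– and P+ roots were 1.22, 3.07 and 1.15 for XLOC_016379, XLOC_020833 and XLOC_020835, against 0.949, 2.13 and 0.98 in the unstranded ones. Primers that the study designed for XLOC_016379, ccacgtcagaggatacataattatcaa (chr3:20200640-20200666, +) and tgtgtaaaggttgcttgcaatca (chr3:20200719-20200741, -), frame 102 bases inside AT3G54580 and inside the first exon of all 3 lncRNA transcripts. The study describes cDNA made with random primers, so this stretch cannot tell the strands apart.

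**Figure D4:**
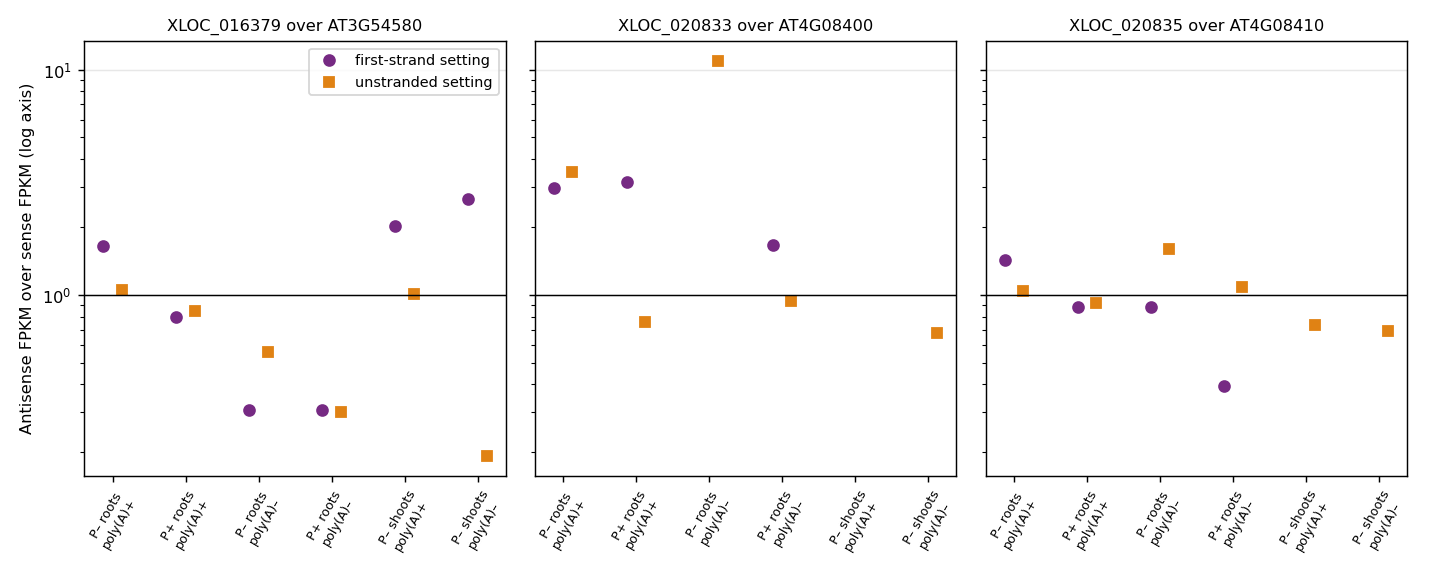
Antisense over sense FPKM for the 3 pairs (log axis) in each root library and in P– shoots, by the strand setting of the library, where the extensin reached at least 1 FPKM. XLOC_016379 over AT3G54580 lies between 0.798 and 1.64 in root poly(A)+ libraries and between 0.302 and 0.558 in root poly(A)– libraries.

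The rest of the extensin machinery was read from lists. Of 12 other extensins, 8 were fitted. All 8 had higher levels in roots than in shoots on both media, with 5 called under P– and 8 under P+. Over all features, 25.9% were called higher in roots under P– and 28.8% under P+. Their median difference between P– and P+ roots was -0.27, against 0.95 for the 10 genes. Where 25.7% of all features had P– root libraries above the P+ ones and 19.3% below, 3 of the 8 lay above and 2 below. Those above were EXT13 (1.07 ± 0.36, SE), LRX1 (1.44 ± 0.41), a root hair extensin, and LRX2 (1.29 ± 0.38), which were named after their values were seen. EXT3, a broadly used extensin of the young wall, had 2191 and 2551 FPKM in P– roots, against 2542 and 2522 FPKM in P+ roots. AT2G43150 had 711 and 495 FPKM in P– roots, against 2647 and 558 FPKM in P+ roots, and EXT1/4 had 552 and 174 FPKM in P– roots, against 731 and 244 FPKM in P+ roots. The P– and P+ root libraries of these 3, the most abundant of the list, overlapped.

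Of 17 genes for the hydroxylation, glycosylation and crosslinking of extensins, 16 were fitted. Under P–, 12 were called higher in roots than in shoots and 3 lower, and under P+, 13 were called higher and 2 lower. Of all features, 25.9% were called higher and 15.3% lower in roots under P–, and 28.8 and 16.7% under P+. P4H5, a prolyl hydroxylase, had 181 and 151 FPKM in P– roots, against 170 and 111 FPKM in P+ roots. The peroxidase PRX44 had 299 and 197 FPKM in P– roots, against 79.4 and 144 FPKM in P+ roots, and PRX01 had 424 and 370 FPKM in P– roots, against 265 and 222 FPKM in P+ roots. For both peroxidases the P– root libraries lay above the P+ ones. The 12 root hair markers had a median difference of 1.22 in roots, with all 12 positive and none called in limma, 11 of them at an unadjusted p below 0.05. Of the 20951 features fitted, 11215 were positive and 4372 had an unadjusted p below 0.05.

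Over the 8 group means, the mean profile of the 10 genes was matched most closely by AHL19, an AT-hook protein (Pearson r = 0.9953), AT2G03510 (0.9926), HSF4 (0.9926), AT4G36988 (0.9926) and GSTU14, a glutathione transferase (0.9923), among 19741 genes. HSF4 and AT4G36988 had the same values in every group and cannot be told apart. AHL19 had means of 92 and 83.9 FPKM in P– and P+ roots and 10.2 and 1.15 FPKM in P– and P+ shoots (poly(A)+). The genes themselves ran from 0.87 (AT4G08400) to 0.99. The 8 points share libraries and organs, so these values describe the profile and carry no test.

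The promoters were searched for sequence motifs, from 250 bases before to 50 bases after each annotated start. P1BS, the site of the Pi starvation regulator PHR1 (GNATATNC, both strands), was in 0 of the 10 promoters and in 6.25% of 27444. The root hair element, searched by its consensus on both strands, was in 0 of the 10 and in 0.867% of all. No match says only that these letters are not in this window. The study searched a longer upstream stretch and names XLOC_020833 as a potential target of PHR1. Promoters of the antisense loci were not searched here.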

How the data were processed

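The deposited values are FPKM per transcript and library, which the authors estimated with eXpress after mapping to TAIR10 (TopHat2), dropping organelle reads and assembling transcripts (Cufflinks). They kept as lncRNAs non-coding transcripts with no same-strand exon overlap. Their fold changes and p-values, from DESeq2, were not used. The deposited lncRNA exon starts count from 0 (89.4% of introns are then GT–AG on the RefSeq sequence).

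FPKM was summed per gene or lncRNA locus (28596 features), 1 was added before log2, and features with a mean of at least 1 FPKM were kept. The 4 groups of a fraction (all 8 for comparing fractions) went into 1 fit in limma 3.58.1 (R 4.3.3), with variances moderated along the mean, two-sided p-values and Benjamini-Hochberg adjustment over all features. The script was tested on simulated data. Replicates of roots come from the tables that name them (208 of 208 values equal to the full tables, relative tolerance 0.0001). Python 3.11.15, pandas 2.3.3 and numpy 2.4.6 read sequences.

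The extensins and gene lists were chosen with earlier results of these data known. Named were the 10 extensins, their antisense loci, the 3 most abundant genes of each list in P+ roots, of which a selection is printed, and the 5 genes most alike in profile. AT5G49080, a listed extensin, was not analysed here. Alternatives were other pseudocounts, filters and scaling, single tissues and left-out libraries.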

Additional observations from a re-analysis of the deposited data

Results flagged for a closer look

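AT1G23720 had opposite signs in the organs. Its poly(A)+ difference between P– and P+ was -0.97 in roots, where both P– libraries lay below both P+ libraries, and 3.31 in shoots, where both lay above. The difference between the organs was not tested in this fraction, because the choice of the genes had the contrast in view.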

How the results depend on the processing

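In the alternatives run, 9 to 10 extensins were called higher in roots than in shoots under P–, and all 10 under P+. The counts of 0 in poly(A)– RNA and between fractions held in every alternative. Rescaling moved the median of all features between roots and shoots from 0.32 to 0.05 under P– and from 0.36 to 0.06 under P+, and root to shoot differences are to be read relative to that. In poly(A)+ shoots the median P– to P+ difference of 2.30 became 5.0 with a pseudocount of 0.1 FPKM, 0.87 with one of 5 FPKM, and 2.97 with shoot libraries alone, where 8 extensins were fitted. Without single libraries it ran from 1.94 to 2.73, and in poly(A)+ roots from 0.52 to 1.51. The labels number replicates in both organs, but the root columns of the tables of all features carry other numbers, so a block could be fitted in shoots only. Same-numbered shoot libraries, 2 pairs, had deviations that correlated at 0.28 in poly(A)+ and 0.03 in poly(A)– RNA. With a replicate block in shoots alone the median was also 2.97, and 0 extensins were called in poly(A)– RNA.

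Leaving out single libraries turned the sign of these differences, none of them called. Between P– and P+ roots in poly(A)– RNA, the values ran from -2.18 to 0.02 for AT1G23720, -1.81 to 1.77 for AT3G28550 (0.02 after rescaling), -1.37 to 1.72 for AT3G54580, -0.40 to 2.71 for AT3G54590, -0.99 to 0.41 for AT4G08410, -0.46 to 3.43 for AT5G06640, -0.90 to 2.1 for XLOC_016379, -2.42 to 1.52 for XLOC_020833 and -0.90 to 1.54 for XLOC_020835. Between P– and P+ shoots in poly(A)– RNA, they ran from -0.52 to 1.83 for AT3G28550, -0.92 to 2.41 for AT3G54590, -0.98 to 0.91 for AT4G13390 and -0.07 to 2.60 for XLOC_016379. Between poly(A)+ and poly(A)– RNA of P+ roots, they ran from -0.69 to 1.65 for AT2G24980, -0.31 to 3.27 for AT3G28550, -1.17 to 1.92 for AT3G54580, -0.65 to 2.46 for AT3G54590, -0.57 to 2.61 for AT4G08400, -0.04 to 1.36 for AT4G08410, -1.12 to 2.77 for AT5G06640 and -0.28 to 2.16 for XLOC_020835. The cause was not tested.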
